A study of Mus musculus with 20 samples.

Results

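The caveolins Cav1, Cav2 and Cav3 and the cavins Cavin1, Cavin2 and Cavin3 are 6 of the 51789 genes measured here in the intervertebral disc of old mice. They were taken as the coat genes of the caveola by name, with earlier results of these data known. Cav1, Cav2 and Cav3 were found under their symbols, and Cavin1, Cavin2 and Cavin3 under the older symbols Ptrf, Sdpr and Prkcdbp, by their Ensembl identifiers. All 6 are described in 20 RNA-seq libraries of BL6 mice aged 24 months. The libraries came from 2 compartments of the disc, its soft centre of notochordal descent, the nucleus pulposus (NP), and the lamellar collagen ring that encloses it, the annulus fibrosus (AF). From 18 months of age and for 6 months the mice had weekly intraperitoneal injections of MDL-800 in DMSO, or of DMSO alone (vehicle). MDL-800 is a small-molecule activator of the deacylase SIRT6. Each compartment has 5 libraries from vehicle mice and 5 from MDL-800 mice, so the 4 groups hold 5 libraries each, and all 20 libraries come from mice given DMSO. The labels describe tissue dissected under a microscope but also call the samples primary cells, and do not say whether a library is 1 mouse or several, so p-values measure the spread between these libraries. Whether NP and AF libraries came from the same mice is not said either, though some carry matching numbers. The design asks what long MDL-800 exposure changes in each compartment of the aged disc.

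Caveolae are small flask-shaped pits of the plasma membrane that flatten under tension, bind cholesterol and gather signalling proteins. Caveolins are hairpin proteins set in the inner leaflet of the membrane: CAV1 forms the oligomers on which the pit is built in most cells, CAV2 joins them, and CAV3 takes the place of CAV1 in striated muscle. Cavins are soluble proteins that coat the pit from the cytosol: CAVIN1 is needed to form it, and CAVIN2 and CAVIN3 bind CAVIN1 and modify its shape and traffic. Notochord cells and the vacuolated NP cells that descend from them are known for abundant caveolae, which buffer them against mechanical load; endothelium, fat cells and muscle are the other classic caveola-rich cells.

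Cav2 (GRCm38 chr6:17281185-17289115) and Cav1 (chr6:17306335-17341452) are neighbours on the plus strand, with 17219 bases between them. Cav3 (chr6:112459505-112472872) is on the plus strand of the same chromosome, at a distance of 95118052 bases. The 3 cavins are apart, Cavin1 at chr11:100956733-100970887 on the minus strand, Cavin2 at chr1:51289126-51302960 on the plus strand and Cavin3 at chr7:105480083-105482300 on the minus strand. The 250 bases before the start of the 3 caveolins are shown from RefSeq (GRCm38.p6), because Cav1 and Cav2 are neighbours that kept a similar ratio while Cav3 went the other way between the tissues. Windows of 5 of the 6 members were found there, and Cavin3 was not among them. Capitals mark a TATA box (TATAAA), a GC box (GGGCGG) or a CCAAT box (CCAAT) read on either strand, so TTTATA is the first of these on the minus strand and CCGCCC the second; the 3 motifs do not overlap in these windows.
Cav1, chr6:17306085-17306334, plus strand: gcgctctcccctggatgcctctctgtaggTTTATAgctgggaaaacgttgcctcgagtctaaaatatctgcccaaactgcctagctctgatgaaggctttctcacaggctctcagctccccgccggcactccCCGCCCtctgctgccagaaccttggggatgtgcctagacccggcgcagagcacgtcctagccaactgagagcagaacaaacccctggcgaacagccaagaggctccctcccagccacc
Cav2, chr6:17280935-17281184, plus strand: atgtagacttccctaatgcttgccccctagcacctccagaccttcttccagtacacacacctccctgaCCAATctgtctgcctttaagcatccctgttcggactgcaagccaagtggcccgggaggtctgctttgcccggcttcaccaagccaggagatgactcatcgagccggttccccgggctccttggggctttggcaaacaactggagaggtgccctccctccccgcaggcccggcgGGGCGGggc
Cav3, chr6:112459255-112459504, plus strand: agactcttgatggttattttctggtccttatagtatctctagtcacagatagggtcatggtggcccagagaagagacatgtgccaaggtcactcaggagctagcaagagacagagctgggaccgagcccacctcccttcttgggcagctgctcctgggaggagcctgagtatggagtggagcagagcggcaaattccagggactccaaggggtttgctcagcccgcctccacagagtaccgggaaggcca
The Cav1 and Cav2 windows shown each hold 1 GC box, which 32.7% of 32851 mouse promoter windows of the same length hold. The Cav2 window also has a CCAAT box (33.8% of windows) and the Cav1 window a TATAAA match (12.4% of windows). None of the 3 is in the Cav3 window. RefSeq has a second Cav1 start, whose window (chr6:17307390-17307639) is not shown and holds none of the 3. The hypoxia response core ACGTG was matched once in the Cav1 window shown, as in 16.6% of windows, and not in that of its second start or of Cav2. GC content of the windows shown was 59.6% for Cav1, 62.0% for Cav2 and 56.0% for Cav3, beside a median of 52.4% over all windows. These matches describe letters and were set against no binding data.

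Values are FPKM, which count fragments relative to transcript length and library total, divided by a factor for each library (0.933 to 1.06) so that levels can be compared between libraries and, being per length, between genes. Depth, estimated from the steps of low values, was 12.7 to 22.1 megareads a library. NP and AF libraries carried the markers of their labels. Of 10 NP markers tested (among them Krt8, Krt19, Lgals3 and T), 10 were higher in NP vehicle than in AF vehicle, and 8 of 9 AF markers (among them Col1a1, Tnmd and Scx) were lower. By the same test, described below, 21.8% of all genes were higher and 33.9% lower. In MDL-800 mice 9 of 10 NP markers were higher and 7 of 9 AF markers lower, beside 25.6% and 37.2% of all genes. AF markers near 0 in NP, such as Tnmd (mean 0.444 FPKM in NP MDL-800), entered the test through their AF values. NP marker RNA was nevertheless present in every AF library: the summed FPKM of the list was 3218 to 17270 in AF vehicle, 4426 to 9659 in AF MDL-800, against 30200 to 36240 in the NP of vehicle mice and 32830 to 39250 in the NP of MDL-800 mice. Skeletal muscle markers summed to 1041 to 11460 FPKM in the AF libraries and to 15.7 to 1563 in the NP libraries. In bulk tissue, fewer cells of a type and less RNA per cell cannot be told apart.

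Cav1 was one of the most abundant transcripts of the NP. Its scaled FPKM was 1726, 1824, 1561, 1961 and 1751 in NP vehicle libraries 1, 2, 3, 5 and 6. Under MDL-800, NP libraries 15, 18, 19, 20 and 22 were at 1902, 1819, 1905, 1875 and 1729. The NP libraries lay close together, with a mean of 1764 ± 146 (SD, n = 5) under vehicle and 1846 ± 73.8 (SD, n = 5) under MDL-800, which ranked Cav1 19th and 23rd of 16383 genes by level. In AF vehicle libraries 8, 9, 10, 12 and 13 Cav1 was at 314, 831, 632, 450 and 219. Under MDL-800, AF libraries 25, 27, 28, 29 and 30 were at 698, 337, 270, 455 and 383. Every AF library was below every NP library, and the AF values spread widely, with a mean of 489 ± 246 (SD, n = 5) under vehicle and 429 ± 165 (SD, n = 5) under MDL-800. Cav1 still ranked 149 and 177 of 16383 in the AF groups.

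Cav2, the partner of Cav1 in its oligomers, followed it at a lower level. It was at 266, 292, 232, 302 and 250 in NP vehicle, in the library order given for Cav1, while NP MDL-800 had 299, 320, 264, 268 and 233. In AF vehicle it was at 48.4, 118, 119, 76.5 and 38.9, and the AF MDL-800 libraries had 88.6, 65.8, 45.3, 68.7 and 51.0. The libraries that were high in Cav1 within AF vehicle, 9 and 10, were also high in Cav2, and the highest AF value stayed under the lowest NP value.

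Cav3, the caveolin of striated muscle, showed the reverse order. It was at 0.557, 0.00, 1.35, 0.207 and 0.484 in NP vehicle, and NP MDL-800 had 0.259, 0.295, 0.242, 0.212 and 0.371. The AF vehicle libraries had 1.85, 7.71, 3.22, 13.7 and 4.41, and the AF MDL-800 libraries had 1.83, 6.11, 1.17, 13.6 and 1.73. NP values stand for very few reads, about 0 to 29 per library by the estimated depth, against about 24 to 263 in AF. The highest NP value was that of NP vehicle library 3, which also had the highest skeletal muscle marker sum of the NP, 1563 FPKM, and the highest AF values were in AF vehicle 12 and AF MDL-800 29, the libraries highest in those markers among AF (10630 and 11460 FPKM).

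Cavin1, the obligate coat protein, differed least between the tissues. It was at 296, 285, 307, 235 and 257 in NP vehicle, and NP MDL-800 had 294, 293, 266, 392 and 274. The AF vehicle libraries had 160, 201, 235, 188 and 143, and the AF MDL-800 libraries had 220, 185.9, 145, 175 and 116. AF vehicle library 10 (234.8) lay just above NP vehicle library 5 (234.5), so the vehicle groups touched. Cavin1 ranked 271 of 16383 in NP vehicle and 421 in AF vehicle.

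Cavin2, which binds phosphatidylserine and Cavin1, was at 127, 87.7, 98.1, 77.3 and 107 in NP vehicle, and NP MDL-800 had 76.8, 62.1, 80.2, 121 and 87.5. The AF vehicle libraries had 44.8, 65.7, 37.2, 35.9 and 35.3, and the AF MDL-800 libraries had 63.0, 29.5, 34.4, 41.2 and 41.4. The highest AF library of each treatment, AF vehicle 9 and AF MDL-800 25, was also the highest of its group in NP markers.

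Cavin3, the cavin that binds protein kinase C delta, was at 58.2, 68.1, 72.3, 82.4 and 69.6 in NP vehicle, and NP MDL-800 had 86.5, 91.6, 102, 94.4 and 88.4. The AF vehicle libraries had 31.0, 39.6, 44.3, 31.3 and 24.8, and the AF MDL-800 libraries had 41.8, 28.0, 23.1, 34.4 and 29.4. All NP libraries were above all AF libraries, and all 5 NP MDL-800 libraries above all 5 NP vehicle libraries.

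Within NP vehicle the order of the levels was Cav1, then Cavin1 (276 ± 29.6, SD, n = 5) and Cav2 (268 ± 29.0, SD, n = 5), then Cavin2 (99.6 ± 19.2, SD, n = 5) and Cavin3 (70.1 ± 8.70, SD, n = 5), then Cav3. Cavin1 and Cav2 did not differ beyond their spread, and the ranges of Cavin2 and Cavin3 overlapped. Cav1 made up 71.1% ± 1.96 (SD, n = 5) of the summed FPKM of the 6 members in NP vehicle and 56.2% ± 7.04 (SD, n = 5) in AF vehicle, while Cavin1 made up 11.2% ± 1.73 (SD, n = 5) and 23.8% ± 5.52 (SD, n = 5). In AF vehicle the order was Cav1, Cavin1, Cav2, Cavin2, Cavin3 and Cav3, and the ranges of neighbours in that order overlapped except between Cavin1 and Cav2 and between Cavin3 and Cav3.

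**Figure D1:**
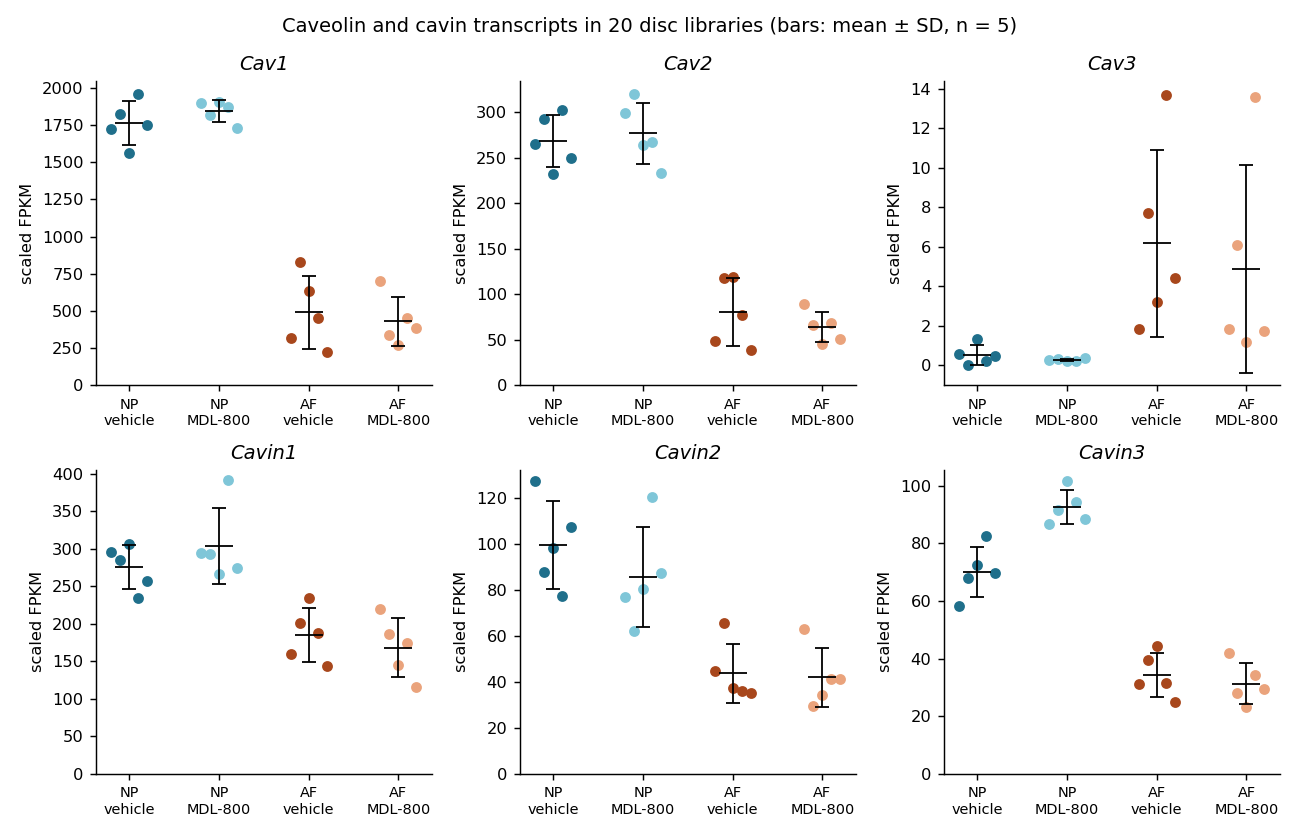
Scaled FPKM (vertical axis, linear) of the 6 members in the 4 groups, with a point for each library and bars for mean ± SD, n = 5. NP points lie above AF points for Cav1, Cav2 and Cavin3, Cav3 is near 0 in NP, and the Cavin3 points of NP MDL-800 (86.5 to 102) lie above those of NP vehicle (58.2 to 82.4).

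Between NP and AF of vehicle mice, Cav1, Cav2, Cavin1, Cavin2 and Cavin3 were all higher in NP, by limma over 16383 genes with Benjamini-Hochberg adjustment and a threshold of 0.05. The tissues differ broadly, since 55.7% of all genes passed in either direction and 21.8% were higher in NP, so a call alone says little about a member. Fold changes here are log2 differences of scaled FPKM + 1. Cav1 was higher by 2.00 (SE 0.32, adjusted p = 0.0003467), and only 146 genes tested had a larger difference. Cav2 was higher by 1.86 (SE 0.29, adjusted p = 0.0003292), with 196 genes above it. Cavin2 and Cavin3 were higher by 1.19 (SE 0.19, adjusted p = 0.0003444) and 1.03 (SE 0.15, adjusted p = 0.0002413). Cavin1 was higher by 0.59 (SE 0.14, adjusted p = 0.005371), with 2347 genes above it. Cav1, Cav2, Cavin2 and Cavin3 had no overlap between the groups, as had 15.1% of all genes in that direction; the ranges of Cav3 did not overlap either, as for 25.9% of genes lower in NP. Cav3 was lower by 2.06 (log2 difference -2.06, SE 0.41, adjusted p = 0.00141), a direction in which 33.9% of genes were called; it entered the test through its AF values, having reached 1 FPKM in 10 AF libraries and 1 NP library, so its call lends no support to a pattern. Its size depends on the pseudocount, with -3.50 in vehicle and -3.14 in MDL-800 at a pseudocount of 0.1.

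The same comparison in MDL-800 mice used other libraries and gave the same directions, where 62.8% of all genes were called and 25.6% were higher. Cav1 was higher in NP by 2.18 (SE 0.22, adjusted p = 1.274e-05) and Cav2 by 2.13 (SE 0.17, adjusted p = 3.355e-06). Cavin3 was higher by 1.56 (SE 0.14, adjusted p = 5.814e-06), Cavin2 by 1.02 (SE 0.21, adjusted p = 0.001621) and Cavin1 by 0.87 (SE 0.17, adjusted p = 0.001283). Here Cavin2 had overlapping groups and Cavin1 did not (18.5% of genes were higher without overlap). Cav3 was at -1.80 (SE 0.46, adjusted p = 0.005556; 37.2% of genes were called lower and 30.5% lower without overlap), and at -1.004 (adjusted p = 0.000147) without AF libraries 27 and 29, the AF MDL-800 libraries highest in skeletal muscle markers. Under quantile normalization the median difference of all genes moved from -0.08 to 0.20 in vehicle and from -0.08 to 0.21 in MDL-800, and the vehicle split of called genes from 3577 higher and 5550 lower to 6474 higher and 3923 lower, with a like turn in MDL-800 (4188 and 6102 against 6919 and 4290); the members kept their directions and calls, with Cavin1 at 0.64 and Cav3 at -1.61 in vehicle.

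**Figure D2:**
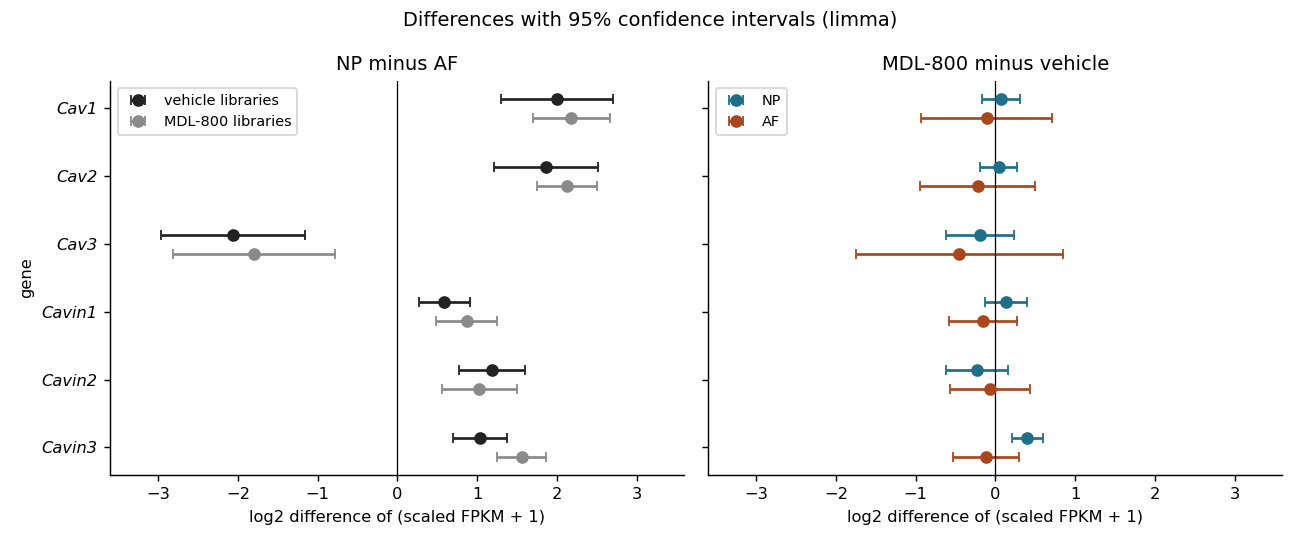
Log2 differences of scaled FPKM + 1 (horizontal axis) with 95% confidence intervals for each member, between tissues on the left (black, vehicle; grey, MDL-800) and between treatments on the right (blue, NP; brown, AF). The intervals on the left exclude 0 for all 6 genes, and on the right only that of Cavin3 in NP does (0.20 to 0.60).

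Markers of endothelium, fat and skeletal muscle, cell types known to be rich in caveolae, were lower in NP than in AF. Of 14 endothelial markers, 13 were lower and 1 (Flt1) higher in NP vehicle, with a median of -2.28 beside -0.08 over all genes, and the list summed to 28.2 to 53.2 FPKM in NP vehicle against 104 to 224 in AF vehicle (under MDL-800, 40.6 to 45.4 in NP and 140 to 215 in AF). Pecam1 was at 1.63 ± 0.500 (SD, n = 5) in NP vehicle and 25.7 ± 9.67 (SD, n = 5) in AF vehicle, and Tie1 and Cldn5 were listed at 0 in some NP vehicle libraries. Of 9 fat-cell markers, 8 were lower in NP vehicle, with sums of 21.2 to 37.8 FPKM against 263 to 455. All 13 skeletal muscle markers were lower in NP vehicle. Smooth muscle and pericyte markers were mixed, with 3 of 9 higher in NP vehicle (among them Myh11) and 5 lower (among them Rgs5 and Notch3); Acta2 was at 663 ± 237 (SD, n = 5) in NP vehicle and 168 ± 120.5 (SD, n = 5) in AF vehicle, which set the sum of that list at 737 to 1469 against 218 to 637 FPKM. Beside all these counts, 33.9% of all genes were called lower and 21.8% higher in NP vehicle. Genes of these lists that are near 0 in NP entered the test through their AF values.

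The ranges of the endothelial list did not overlap between the tissues, so that list and the tissue cannot be told apart in a model: with its mean as a covariate none of the 6 members was called in either treatment. The skeletal muscle list did not overlap between the tissues in MDL-800 mice either (mean log2 level 0.89 to 3.87 in NP and 5.33 to 8.81 in AF), and overlapped in vehicle mice only through NP library 3 (0.93 to 6.17 and 5.85 to 8.68), so it too can hardly be told apart from the tissue in vehicle and cannot be in MDL-800. With its mean as a covariate Cav3 was not called, at -0.76 (adjusted p = 0.3541) in vehicle and -0.03 (adjusted p = 0.9761) in MDL-800. The other 5 members were called in vehicle, and in MDL-800 Cavin1 (0.92, adjusted p = 0.07153) and Cavin2 (0.45, adjusted p = 0.3843) were not. These adjusted p-values are from limma.

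Ratios of members within a library depend little on its scaling. The ratio of Cav1 to Cav2 was 6.57 in NP (6.22 to 6.99) and 5.97 in AF (5.29 to 6.99) of vehicle mice. In MDL-800 mice it was 6.68 in NP (5.67 to 7.39) and 6.45 in AF (5.06 to 7.81). The groups overlapped, and the NP to AF difference had an exact two-sided permutation p of 0.119 in vehicle (adjusted over 20 tests, 0.2646) and 0.7063 in MDL-800 (adjusted 0.8964). The ratio of Cav1 to Cavin1 was 6.39 in NP vehicle (5.08 to 8.33) and 2.40 in AF vehicle (1.53 to 4.12), with no overlap. In MDL-800 mice it was 6.12 (4.78 to 7.13) and 2.46 (1.81 to 3.29), again with no overlap. Both have the smallest p that the exact test of 5 against 5 can give, 0.0079, and an adjusted p of 0.0635. The ratio of Cavin1 to Cavin3 was lower in NP than in AF by size, 3.896 against 5.32 in vehicle and 3.23 against 5.22 in MDL-800 (exact p = 0.0159 in each, adjusted 0.0635). Cavin1 to Cavin2 was 2.78 in NP vehicle and 4.22 in AF vehicle (exact p = 0.0238, adjusted 0.0794), and 3.58 and 3.98 in MDL-800 mice (exact p = 0.5238, adjusted 0.873). None of the 20 tests passed the threshold of 0.05 after adjustment. Without AF vehicle library 9, the AF vehicle library highest in NP markers and in Cav1, 4 of the 5 NP to AF ratios in vehicle did (adjusted exact p = 0.04535 each). These were Cav1 to Cav2, Cav1 to Cavin1, Cavin1 to Cavin2 and Cavin1 to Cavin3, so the call for Cav1 to Cav2 also depends on that library. The adjustment ran over all 20 tests together, and smaller groups have other possible exact p-values. Passing therefore depends on the set of tests as well as on that library. Ratios that do not hold that library were adjusted in the same run, and their adjusted p there is not given.

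**Figure D3:**
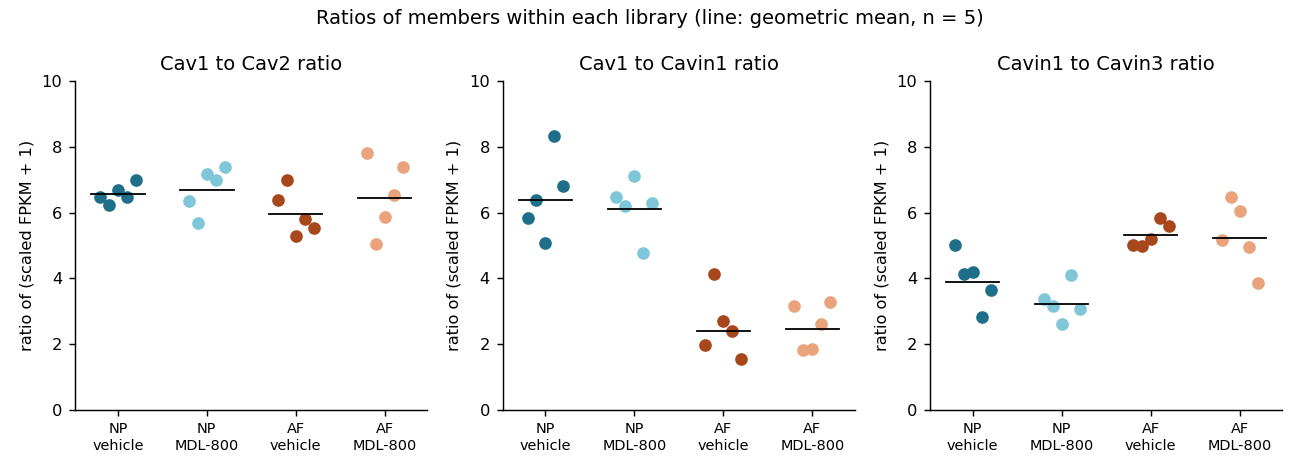
Ratios of scaled FPKM + 1 within each library (vertical axis, linear from 0) for Cav1 to Cav2, Cav1 to Cavin1 and Cavin1 to Cavin3, with a point for each library and a line at the geometric mean of the 5 in each group. Cav1 to Cav2 lies between 5.06 and 7.81 in all 4 groups, while Cav1 to Cavin1 is 4.78 or more in NP and 4.12 or less in AF.

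MDL-800 gave no called change of any member in NP, where limma called 41 genes in all, or 0.25% (0.232% higher and 0.0183% lower). Cavin3 was the member with the largest difference, 0.40 higher under MDL-800 (SE 0.09, 95% interval 0.20 to 0.60, limma adjusted p = 0.0787), with all 5 treated libraries above all 5 vehicle libraries. Of all genes, 3.5% were higher with no overlap in this comparison. Over 9 other settings and 10 leave-one-out fits its adjusted p ranged from 0.0526 to 0.2976 and its difference from 0.26 to 0.46. The NP groups also differed in how values depend on GC content: the slope of log2 value on GC, per 10 points of GC and relative to the mean of all libraries, was -0.285 to -0.007 under vehicle and 0.023 to 0.088 under MDL-800, without overlap, and Cavin3 has 56.4% GC against a median of 49.3% over the genes tested. With the GC trend of each library removed, an alternative chosen after the data were seen, Cavin3 was at 0.26 (limma adjusted p = 0.1831). The vehicle slopes were -0.285 and -0.278 in libraries 1 and 2, and -0.026, -0.049 and -0.007 in libraries 3, 5 and 6. Of the members, only Cavin1 (57.3%) and Cav3 (56.6%) have a higher GC content, and they were at 0.13 and -0.19. Whether GC content bears on the Cavin3 difference was not tested.

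For the other members the NP groups overlapped, and the 95% intervals bound the differences. Cav1 was at 0.07 (-0.17 to 0.31), Cav2 at 0.04 (-0.19 to 0.28) and Cavin1 at 0.13 (-0.13 to 0.39). Cavin2 was at -0.23 (-0.62 to 0.16) and Cav3 at -0.19 (-0.62 to 0.23). The ratio of Cavin1 to Cavin2 was 2.78 in NP under vehicle and 3.58 under MDL-800, with overlapping ranges (exact permutation p = 0.0159, adjusted 0.0635). Cavin2 to Cavin3 was 1.40 and 0.904 (exact permutation p = 0.0317, adjusted 0.0794).

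In AF, limma called no gene for MDL-800 (0.0% of all genes; 270 at an unadjusted p under 0.05), and the groups of every member overlapped. All 6 differences were below 0 by size, with wide intervals: Cav1 at -0.11 (-0.94 to 0.71), Cav2 at -0.22 (-0.94 to 0.50), Cav3 at -0.45 (-1.75 to 0.84), Cavin1 at -0.15 (-0.58 to 0.28), Cavin2 at -0.07 (-0.56 to 0.43) and Cavin3 at -0.12 (-0.54 to 0.29). The median over all genes was 0.0085. The shared sign is not 6 separate results, since members vary together in AF (Cav1 had r = 0.948 with Cav2 and 0.927 with Cavin3). Cav1 and Cavin2 changed sign in some leave-one-out fits. The libraries of 1 group were far apart here, with a coefficient of variation of Cav1 of 50.3% in AF vehicle against 8.26% in NP vehicle. The difference of the MDL-800 effect between NP and AF was called for no member and no gene by limma (0.0%; 611 at an unadjusted p under 0.05). It was 0.52 for Cavin3 (SE 0.21, 95% interval 0.08 to 0.97, limma adjusted p = 0.9997).

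Within the AF, Cav1 and Cavin2 were highest in the libraries highest in NP markers. Over the 10 AF libraries Cav1 and the mean log2 level of the NP markers had a Pearson r of 0.905 (permutation p = 0.00029, adjusted over 108 relations 0.0227) and a Spearman rho of 0.879 (permutation p = 0.00154, adjusted 0.0896). Without the 2 libraries farthest from the median r was 0.784, and over deviations from the treatment means 0.916. For Cavin2 the same relation had r = 0.886 (permutation p = 0.00115, adjusted 0.0414) and rho = 0.842 (permutation p = 0.00369, adjusted 0.133), with r = 0.620 without the 2 farthest libraries. Cav3 followed the skeletal muscle markers, with r = 0.924 (permutation p = 0.00042, adjusted 0.0227), rho = 0.879 (permutation p = 0.00166, adjusted 0.0896) and r = 0.847 without the 2 farthest. These 3 of 108 relations passed by r, and no rho passed. Cavin3 and the NP markers had r = 0.793 (permutation p = 0.00683, adjusted 0.184), and 0.696 without the 2 farthest libraries. Cav2 and the NP markers had r = 0.717 (permutation p = 0.0207, adjusted 0.36), and Cavin1 r = 0.41 (permutation p = 0.238, adjusted 0.692). The batches of these libraries are not given in the sources used here. Within AF vehicle and AF MDL-800, of 5 libraries each and given with no test, r was 0.935 and 0.906 for Cav1 and 0.845 and 0.959 for Cavin2 with the NP markers, and 0.965 and 0.908 for Cav3 with the muscle markers. In the 10 NP libraries no relation passed, and Cav1 and the NP markers had r = 0.429 (permutation p = 0.216, adjusted 0.692). What part of the AF levels of Cav1 comes with NP marker RNA was not tested.

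**Figure D4:**
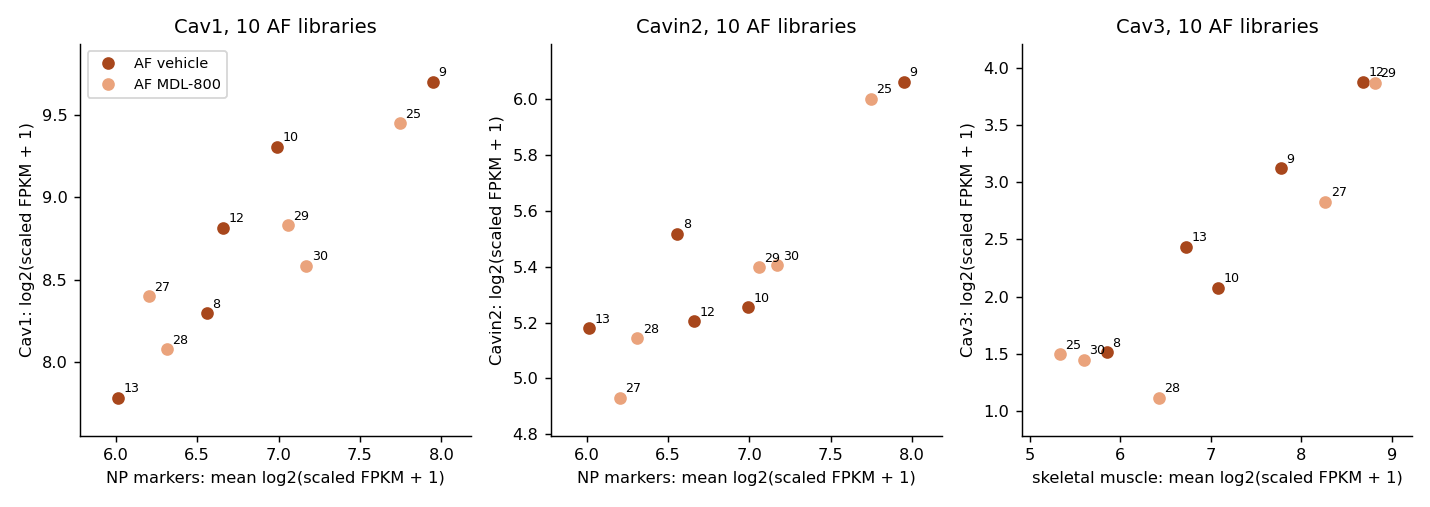
Log2(scaled FPKM + 1) of Cav1, Cavin2 and Cav3 (vertical axes) against the mean log2 level of the NP or skeletal muscle markers (horizontal axes) in the 10 AF libraries, numbered, with vehicle in brown and MDL-800 in orange. Cav1 and Cavin2 are highest in AF vehicle 9 and AF MDL-800 25, the libraries highest in NP markers, and Cav3 in AF vehicle 12 and AF MDL-800 29, those highest in muscle markers.

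Correlations of members after the group means were taken out are given here as a description over 20 libraries that share scaling and dissection. Cav1 and Cav2 had r = 0.929, Cav1 and Cavin3 0.861, Cav1 and Cavin1 0.587 and Cav1 and Cavin2 0.522. Cav3 had r between -0.043 and 0.263 with the other members. Over the 10 AF libraries Cav1 had r = 0.927 with Cavin3, 0.723 with Cavin1 and 0.71 with Cavin2. Over the 10 NP libraries, where Cav1 varies little, these were 0.399, -0.345 and -0.281; the difference between the tissues was not tested. Some pairs were negative in NP, such as Cav1 and Cav3 (-0.829), Cav2 and Cav3 (-0.631) and Cav2 and Cavin2 (-0.572). Cav3 in NP stands for only about 0 to 29 reads a library, so its r values there are weakly based. NP vehicle library 3 had the highest Cav3 (1.35) and the lowest Cav1 (1561) and Cav2 (232) of the NP libraries. Cav1 and Cav2 had r = 0.709 in NP and 0.948 in AF. Cavin1 and Cavin2 had r = 0.665 in NP and 0.301 in AF.

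Among 10715 genes with a mean of at least 5 FPKM, those with the pattern most like Cav1 over the 20 libraries were Dsg2, a desmosomal cadherin (r = 0.994), Plet1, a surface glycoprotein (r = 0.994), and Tshr, the thyrotropin receptor (r = 0.993). The same 3 led over deviations from group means (Plet1 0.967, Dsg2 0.960, Tshr 0.948). Plet1 was at 309 FPKM in NP vehicle and 65.4 in AF vehicle. Leading genes here and below are the 3 of highest r, given with no test. An r over the 20 libraries includes the difference between the tissues, and 21.8% of all genes were called higher in NP vehicle. Deviations of Cav1 are larger in AF, with a coefficient of variation of 50.3% in AF vehicle against 8.26% in NP vehicle. For Cav2 the leading genes were Bnip3 (r = 0.992), a mitophagy receptor, Dsg2 (0.988) and Id4 (0.988), and over deviations Bnip3 (0.942), Serpina1e (0.922) and Ppp1r3c (0.903). For Cav3 they were Tmem38a (r = 0.973), a cation channel of the sarcoplasmic reticulum, 2310040G24Rik (0.973) and Mss51 (0.969), and over deviations Tpm2 (0.954), Camk2a (0.942) and Cdip1 (0.939).

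Cavin1 was less closely matched. Its leading genes were Bpnt1 (r = 0.945), Prnp, the prion protein (0.944), and Ahnak, a giant scaffold protein (0.941); over deviations they were Tspyl4 (0.865), Laptm4b (0.862) and Ahnak (0.856). For Cavin2 they were Calr3 (0.964), Apol9a (0.963) and Rnf144b (0.959), and over deviations Mmgt2 (0.902), Acot7 (0.885) and Apol9a (0.877). For Cavin3 they were Nck2, an adaptor of tyrosine kinases (0.989), Cyb5r3, a reductase of cytochrome b5 (0.986), and Zbtb4 (0.983), and over deviations Nck2 (0.914), Serpina1e (0.886) and Id4 (0.881). Nck2 was at 64.0 FPKM in NP vehicle and 20.7 in AF vehicle, and at 87.2 in NP MDL-800.

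Other caveola genes did not move as one between the tissues. Of 10 accessory genes tested, 4 were higher and 4 lower in NP vehicle, and 4 and 4 in MDL-800, with a median of -0.25 in vehicle beside -0.08 over all genes. Over all genes, 21.8% were higher and 33.9% lower in vehicle and 25.6% and 37.2% in MDL-800, so the count lower is near that share; Ror1, one of those lower, was under 1 FPKM in every NP library. The dynamin-related EHD ATPases went apart: Ehd3 was higher by 1.98 (SE 0.26, adjusted p = 0.0001136), at 357 against 96.9 FPKM, and Ehd2 by 0.69 (SE 0.10, adjusted p = 0.0002029), at 71.8 against 44.3 FPKM. Ehd1 was lower (-1.06, SE 0.26, adjusted p = 0.004971), and Ehd4 was at 0.02 (SE 0.11, adjusted p = 0.9055). The membrane-bending Pacsin3 was higher by 1.47 (SE 0.29, adjusted p = 0.001352). Filamin A, Flna, which ties caveolae to actin, was lower (-1.23, SE 0.18, adjusted p = 0.0002223), and the scission GTPase Dnm2 too (-0.95, SE 0.15, adjusted p = 0.0003084).

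In MDL-800 mice the accessory genes with the smallest p were Flna (-1.50), Ehd3 (2.16), Pacsin3 (2.04), Ehd1 (-1.08) and Ehd2 (0.99). Cavin4, the muscle cavin, was at 2.52 ± 1.11 (SD, n = 5) in NP vehicle and 6.15 ± 6.50 (SD, n = 5) in AF vehicle, with its highest values in AF vehicle 12 (17.5) and AF MDL-800 29 (12.0), and did not pass in either treatment (adjusted p = 0.2258 in vehicle). Ehd2 in NP was at 0.25 under MDL-800 (SE 0.09, adjusted p = 0.2263) and Pacsin3 at 0.49 (SE 0.17, adjusted p = 0.2263). MDL-800 called 0 genes of the list in either tissue.

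**Figure D5:**
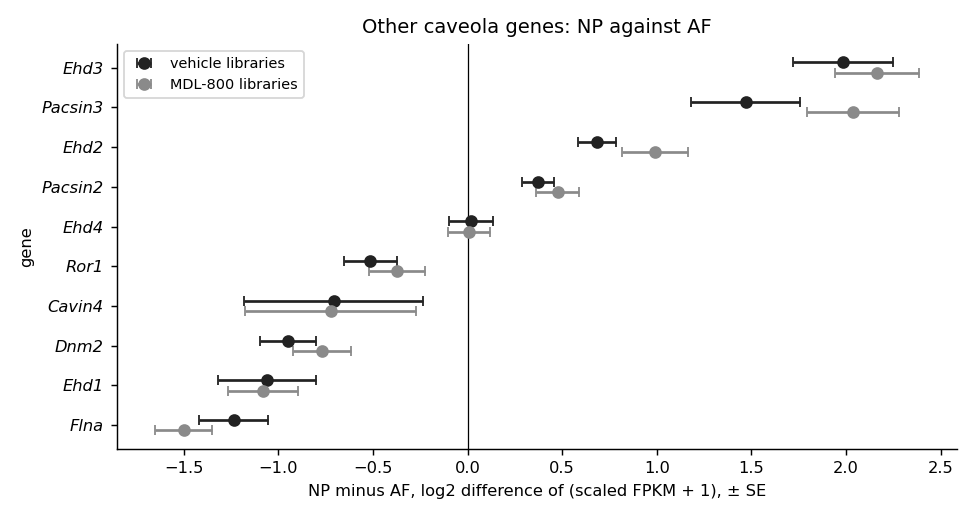
Log2 difference between NP and AF (horizontal axis, ± SE) for the 10 accessory caveola genes tested, in vehicle (black) and MDL-800 (grey) libraries. Ehd3, Pacsin3, Ehd2 and Pacsin2 lie above 0 and Flna, Ehd1, Dnm2 and Ror1 below 0 in both, with Ehd4 near 0.

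Of 11 genes whose proteins are known to bind caveolins or to signal from caveolae, 6 were lower and 1 (Prkca) higher in NP vehicle, and 7 and 1 in MDL-800, with a median of -0.53 in vehicle. Over all genes, 33.9% were called lower and 21.8% higher in vehicle, and 37.2% and 25.6% in MDL-800. Nos3 and Nostrin, 2 of those called lower, were under 1 FPKM in every NP library and entered the test through their AF values. Prkcd, the kinase that Cavin3 binds, was at 9.38 ± 4.05 (SD, n = 5) FPKM in NP vehicle and 47.3 ± 16.1 (SD, n = 5) in AF vehicle (log2 difference -2.23, SE 0.27, adjusted p = 6.489e-05), the opposite direction to Cavin3. Nostrin, which traffics endothelial nitric oxide synthase, was at 0.118 to 0.830 FPKM in NP vehicle and 1.35 to 2.27 in AF vehicle. The kinase Fyn was lower (-1.18, SE 0.17, adjusted p = 0.0002217). Of 5 flotillins and stomatins, scaffold proteins of other membrane domains, 2 were lower in vehicle, near the 33.9% of all genes: Stom (-1.79, SE 0.13, adjusted p = 5.852e-06) and Stoml2 (-0.51, SE 0.14, adjusted p = 0.008694); Flot1 was at 0.10 (SE 0.09, adjusted p = 0.4032). Of 15 clathrin coat genes, the other main route of endocytosis, 9 were lower and 1 higher in vehicle, beside the same 33.9% and 21.8% of all genes; the lower ones included Picalm (-0.99, SE 0.10, adjusted p = 1.831e-05), Fcho1 (-2.38, SE 0.33, adjusted p = 0.0001524) and Ap2s1 (-1.06, SE 0.15, adjusted p = 0.0001637). The median differences of the flotillin and clathrin lists were 0.01 and -0.39. None of these lists had a gene called for MDL-800 in NP or AF. All these values are from limma.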

How the data were processed

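The authors deposited 1 table of FPKM per gene and library, rounded to 2 decimals; per the submitters' processing notes, STAR 2.7.11b and the build mm10 were used, and the other steps are not given in the sources used here. FPKM is not a count, so no count model was run. Libraries were scaled by the median of their ratios to the gene-wise geometric mean, taken on the 11308 genes that reached 1 FPKM in all 20 libraries. A gene had to reach 1 FPKM in 5 libraries to be tested (16383 did), and log2(scaled FPKM + 1) was tested with limma 3.58.1 (trended eBayes, R 4.3.3) in a two-sided test that held the 2 groups compared and no others, with Benjamini-Hochberg adjustment over all genes. A separate limma fit of 2 groups, with the same trended eBayes step, was run on simulated data, and its outcome is not given here. Fold changes of low genes are understated on this scale. Ratios had exact permutation tests over 252 splits, and relations 100000 permutations (Python 3.11.15, scipy 1.17.1). Depth was estimated from low values of single-exon genes, of which 70.1% to 76.9% lay on whole-read steps. The depth was chosen for its match to such steps, and the share that would match by chance is not given. Read numbers are therefore approximate, and reads were not recovered for a count test. GENCODE M21 on GRCm38 gave coordinates.

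All 6 members are named in each comparison of 2 groups. The plan was to name the 5 accessory genes and the 3 genes of each other list of smallest p. Not all of these are named here, and some further list genes were chosen after their values were seen. The members and the lists were chosen with earlier results of these data known. Alternatives were another pseudocount, no filter, no scaling, quantile normalization, all 4 groups in the fit, no trend, 2 marker covariates and each library left out, and, added after seeing the data, a GC correction, a replicate block and leaving out the 3 AF libraries highest in skeletal muscle markers (AF vehicle 12, AF MDL-800 27 and 29).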

Additional observations from a re-analysis of the deposited data

Results flagged for a closer look

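Cavin1 in NP MDL-800 library 20 was at 391.5 scaled FPKM, while the other 4 libraries of that group lay between 266.4 and 293.7. Its gap to the nearest library was 0.7823 of the range of the group, above the limit of 0.71 of Dixon's test for 5 samples. It was the only one of 24 groups of member values past that limit, and chance flags about 1 in 20 groups. Without that library Cavin1 was at 0.04 on the log2 scale between NP MDL-800 and NP vehicle, and with it at 0.13. The same library was the highest of its group in Cavin2, at 120.5.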

How the results depend on the processing

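In both tissue comparisons the calls of the 6 members held under the other pseudocount, no filter, no scaling, quantile normalization, all 4 groups in the fit, no trend, the GC correction, each of 10 leave-one-out fits and, in MDL-800, leaving out both AF libraries highest in skeletal muscle markers (27 and 29; in vehicle the only such library is 12, one of the leave-one-out fits). With the endothelium covariate 0 members were called higher and 0 lower in either treatment; that list and the tissue cannot be told apart. It put Cav1, Cav2 and Cavin1 at -0.43, -0.64 and -0.22 in vehicle, with Cav3, Cavin2 and Cavin3 at -4.81, 1.52 and 0.10. In MDL-800 it put Cav3, Cavin1 and Cavin2 at 0.69, -0.81 and -1.36, with Cav1, Cav2 and Cavin3 at 0.19, 0.85 and 0.52. With the skeletal muscle covariate 0 members were called lower in either treatment and 3 higher in MDL-800. It left 5080 genes called in vehicle and 5305 in MDL-800, against 9127 and 10290, and the endothelium covariate left 2 and 0.

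Numbers in the column names match NP with AF libraries, in 5 pairs under vehicle and 3 under MDL-800, and could mark shared mice. The correlations of paired deviations were -0.178 to 0.285 and -0.176 to 0.17, against -0.372 to 0.327 and -0.17 to 0.235 for unmatched libraries. So few pairs cannot decide whether mice were shared, and the numbers were not taken as pairs. The main limma tests, the ratio tests and the fit of the difference of effects treat all libraries as independent. With the replicate block all 6 members remained called, and 8783 and 7857 genes in all.

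The NP treatment differences that were not called changed sign for Cav1 under quantile normalization (-0.11), for Cavin1 with the GC correction (-0.0226) and for Cav2 over leave-one-out fits (-0.0112 to 0.10). In AF, Cav1 was at 0.11 with the endothelium covariate and -0.36 to 0.12 over leave-one-out fits, and Cavin2 at 0.0136 without AF libraries 12, 27 and 29 and -0.22 to 0.0866. The difference of the effects ranged from -0.0501 to 0.43 for Cav1 and -0.0569 to 0.69 for Cav3. The cause was not tested. The genes called in NP ranged from 2 to 189 over leave-one-out fits and from 4 to 70 under other settings, against 41; no member was called in any. In AF and for the difference of effects the count was 0 or 1.

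Over leave-one-out tests the log2 ratios, NP minus AF in vehicle, ranged from 0.0947 to 0.20 for Cav1 to Cav2, 1.25 to 1.61 for Cav1 to Cavin1, -0.72 to -0.46 for Cavin1 to Cavin2, -0.54 to -0.33 for Cavin1 to Cavin3 and -0.0036 to 0.30 for Cavin2 to Cavin3. In MDL-800 they ranged from -0.0363 to 0.12 for Cav1 to Cav2 and -0.29 to 0.0006 for Cavin1 to Cavin2. For MDL-800 minus vehicle in NP they ranged from -0.0114 to 0.0846 for Cav1 to Cav2 and -0.15 to 0.0318 for Cav1 to Cavin1. In AF they ranged from -0.12 to 0.23 for Cav1 to Cavin1, -0.24 to 0.055 for Cavin1 to Cavin2, -0.10 to 0.082 for Cavin1 to Cavin3 and -0.0903 to 0.15 for Cavin2 to Cavin3. The level of Cav3 in NP, about 0 to 29 reads a library, limits its precision there.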
